A study of Homo sapiens with 6 samples.

Results

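The 5 features described here are PLK1 with the 2 features annotated opposite to it, AC008870.3 and ERN2, and BORA with DIS3 opposite to it. They are 5 of the 60252 gene IDs in the read count table of an RNA-seq study of human RPE-1 cells, an immortalised line from the retinal pigment epithelium, and were picked by name and followed through all 17 libraries. They were selected on results of the same table: the responses to the inhibitor at 4 h and between 4 h and 6 h in solvent were known when the group was drawn up, so those comparisons are given as descriptions, with no p-value. The libraries cover 6 conditions. Cycling cells were not synchronised. Arrested cells were held in 2 mM thymidine for 24 h and not released. The other 4 conditions were held in the same way, washed 3 times and released for 4 h (late S phase) or 6 h (G2 phase). From 1 h after the wash, these released cells received either AZ20 at 2 µM, an inhibitor of the checkpoint kinase ATR, or its solvent DMSO, for 3 h before the 4 h harvest or 5 h before the 6 h harvest. Each condition has 3 libraries, lettered A, B and C and taken as the 3 independent experiments of the design, except the inhibitor at 6 h, which has A and B here (its experiment C was not analysed here).

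PLK1 is the Polo-like kinase that drives entry into mitosis, centrosome maturation and cytokinesis. Its first activation in G2 needs BORA, a cofactor that opens PLK1 so that the kinase Aurora A can phosphorylate its activation loop, and active PLK1 later marks BORA for destruction. PLK1 mRNA is known to rise in G2, through promoter elements that the DREAM and MuvB complexes bind. ERN2 encodes IRE1-beta, a stress sensor of the endoplasmic reticulum known from mucus-secreting epithelia. DIS3 is a catalytic ribonuclease subunit of the nuclear RNA exosome. AC008870.3 is annotated as an antisense transcript inside PLK1, and no function is given for it here.

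Promoter sequence is shown as background, and a link between it and the counts was not tested. RefSeq windows of 250 bases before the start were given for 3 of the 5 features (build GRCh38.p14): PLK1 at chr16:23678639-23678888 on the + strand, BORA at chr13:72727673-72727922 on the + strand and DIS3 at chr13:72781901-72782150 on the - strand. Capitals mark every match, on either strand, to TTTGAA or TTTAAA (the cell cycle homology region, CHR), CCAAT (the NF-Y box) or the E2F-type words TTTCCCGC, TTTGGCGC, TTTCGCGC and GGCGGGAA. Each is printed 5′ to 3′ in the direction of its gene.
PLK1: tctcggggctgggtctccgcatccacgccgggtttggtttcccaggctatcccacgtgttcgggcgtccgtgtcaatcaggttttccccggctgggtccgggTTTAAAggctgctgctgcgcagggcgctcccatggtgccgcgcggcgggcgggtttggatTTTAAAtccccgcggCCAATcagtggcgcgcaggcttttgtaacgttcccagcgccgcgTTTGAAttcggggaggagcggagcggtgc
BORA: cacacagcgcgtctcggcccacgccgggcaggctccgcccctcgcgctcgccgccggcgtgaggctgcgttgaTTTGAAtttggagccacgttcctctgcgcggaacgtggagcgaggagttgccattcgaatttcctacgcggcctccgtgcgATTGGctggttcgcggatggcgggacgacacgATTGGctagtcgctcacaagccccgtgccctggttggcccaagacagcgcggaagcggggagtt
DIS3: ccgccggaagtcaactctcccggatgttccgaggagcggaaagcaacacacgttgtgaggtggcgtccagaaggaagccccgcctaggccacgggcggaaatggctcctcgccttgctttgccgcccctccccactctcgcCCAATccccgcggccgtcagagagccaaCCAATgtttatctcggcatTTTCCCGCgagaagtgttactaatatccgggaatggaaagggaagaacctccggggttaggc

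The PLK1 window holds TTTGAA at bases 29 to 24 before the start, CCAAT at bases 73 to 69 and TTTAAA at bases 148 to 143 and 88 to 83. In the BORA window TTTGAA lies at bases 177 to 172, and CCAAT is read on the opposite strand at bases 96 to 92 and 64 to 60. The DIS3 window has CCAAT at bases 109 to 105 and 81 to 77 and TTTCCCGC at bases 62 to 55, and these letters hold neither CHR word. Of 35116 RefSeq windows of the same length, 13.3% hold TTTGAA, 11.3% TTTAAA, 32% CCAAT and 1.39% TTTCCCGC on either strand, and 4.69% hold both TTTGAA and CCAAT. The matches are a description of the letters only.

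How the features lie against each other decides what their counts can be compared with. In the GENCODE 29 annotation AC008870.3 has 641 exon bases, of which 553 (86.3%) lie opposite PLK1 exons. ERN2 meets PLK1 tail to tail and shares 42 bases with it, 0.84% of its own 4998 exon bases. DIS3 meets BORA in the same way over 1180 bases, which are 37% of BORA's 3189 exon bases and 10.9% of DIS3's 10835.

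**Figure D1:**
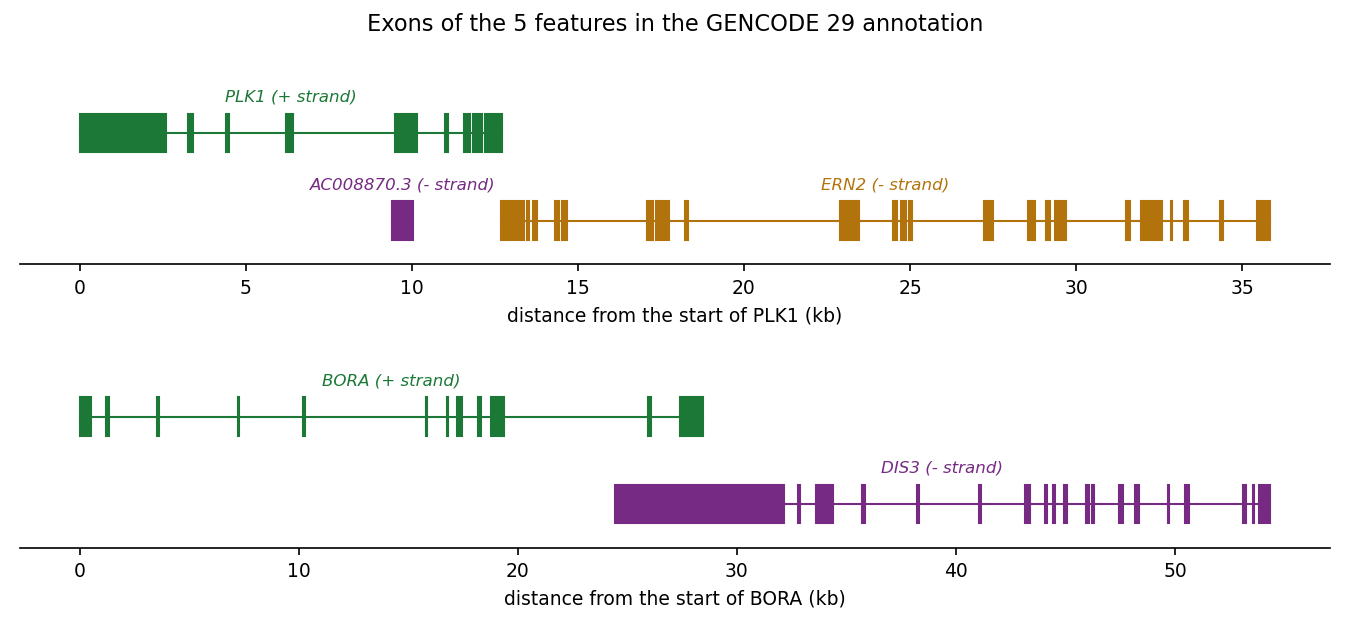
Exons (boxes) of the 5 features by distance in kb from the start of PLK1 (top) and of BORA (bottom), with + strand features above - strand ones. AC008870.3 lies within PLK1 on the other strand, while ERN2 and DIS3 overlap only the ends of PLK1 and BORA.

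The libraries hold 1758747 to 2357561 counts on gene IDs, and 13510 IDs with enough counts were tested. The libraries were made with a kit that marks strand, but the strand setting of the counting is not given in the sources used here, so counts of a gene and of a feature opposite to it cannot be told apart. Per kb of exon, AC008870.3 had a mean of 662 CPM (counts scaled to equal library totals) over the 17 libraries, against 3.98 for PLK1 and 230 for ACTB, the cytoskeletal actin. The same scale gave 11.6 for ERN2, 21.9 for DIS3 and 8.08 for BORA. BEST1, a channel gene opposite the ferritin gene FTH1, had 1420 CPM per kb and FTH1 64.4. Besides ACTB, GAPDH had 225 CPM per kb, TUBA1C 144, EEF1A1 57.6 and RPLP0 35.2. AC125611.3, opposite TUBA1C, had 9690. Of 14 retinal pigment epithelium markers 8 had enough counts to test, and the list summed to 13400 to 20900 CPM per library. Most of that sum was BEST1, with a mean of 12700 CPM, and KRT8, with 3800, followed by PMEL with 319 and KRT18 with 280. BEST1 and PMEL lie opposite FTH1 and CDK2, and KRT8 and KRT18 lie opposite each other, so these 4 are uncertain as to the gene. SERPINF1, CRX, MITF and TYRP1 had means of 19.7, 11.8, 4.71 and 4.13 CPM. The other 6 had means of 2.11 CPM or less, among them RPE65, RLBP1, TTR and LRAT at 0.0575, 0.204, 0.0266 and 0.483 CPM. Of 5 markers of blood, other epithelial, endothelial and fibroblast cells in the table, COL1A1 alone had enough counts, with a mean of 25.3 CPM. Because whole cultures were sequenced, fewer cells of a cell cycle phase and less RNA per cell cannot be told apart. Experiment B stands apart from A and C on the first principal component, which holds 26% of the variance.

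PLK1 was lowest in arrested cells and highest under the inhibitor. In cycling cells it stood at 20.7, 21.6 and 12 CPM in experiments A, B and C, and in arrested cells at 2.35, 4.41 and 7.04 CPM. After release into DMSO it stood at 10.4, 12.7 and 9.26 CPM at 4 h and at 24.5, 16.8 and 20.6 CPM at 6 h. With the inhibitor the values were 30.3, 37.8 and 25.4 CPM at 4 h, and 38.3 and 27.6 CPM in experiments A and B at 6 h. All arrested libraries lie below all others. The lowest inhibitor library, at 25.4 CPM (54 counts), is hardly above the highest DMSO library, at 24.5 CPM (53 counts). The 4 h libraries and the 6 h DMSO libraries took part in choosing the features, so their order is a description. How many of all IDs are ordered in this way was not counted. The PLK1 values rest on few reads, 4 to 84 counts per library, so that single arrested libraries are imprecise.

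AC008870.3 followed the same order of conditions at far higher counts. It measured 399, 350 and 432 CPM in cycling cells and 126, 94.5 and 114 CPM in arrested cells. Release into DMSO gave 275, 183 and 173 CPM at 4 h and 712, 464 and 470 CPM at 6 h. Under the inhibitor it reached 626, 602 and 466 CPM at 4 h and 1000 and 724 CPM at 6 h. Ordered by their means, the conditions ran from arrested through 4 h DMSO, cycling, 6 h DMSO and 4 h inhibitor to 6 h inhibitor, and only the ranges of 6 h DMSO and 4 h inhibitor overlapped their neighbour's.

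ERN2 ranked the conditions much as AC008870.3 did, although the annotation puts 42 of its bases opposite PLK1. The cycling libraries had 53.2, 42.8 and 72.7 CPM and the arrested ones 11.8, 15.7 and 15.6 CPM. In DMSO there were 26.7, 24.9 and 25.4 CPM at 4 h and 97, 83.8 and 58.1 CPM at 6 h. With AZ20 the values were 84, 80.5 and 55.9 CPM at 4 h and 130 and 109 CPM at 6 h. The arrested libraries are below all others and the 6 h inhibitor libraries above all others. Markers of mucus-secreting cells, the cells in which ERN2 is known, were almost absent: 6 of 11 had no count in any library, 1 of 11 had enough counts to test, and their summed level ran from 0.495 to 10.7 CPM over the libraries of all conditions.

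BORA varied by 2.31-fold between its lowest and highest library, against 16.3-fold for PLK1. Cycling cells gave 33, 36.4 and 30.6 CPM and arrested cells 23.5, 20.1 and 29.2 CPM. In DMSO it stood at 28.7, 18.6 and 27.3 CPM at 4 h and at 27.7, 27.8 and 26.6 CPM at 6 h. The inhibitor libraries had 22.6, 15.7 and 19.3 CPM at 4 h and 25.5 CPM in both experiments at 6 h. The cycling libraries lie above all others, and the ranges of arrested, 4 h DMSO and 4 h inhibitor cells overlap.

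DIS3 was lowest in arrested cells and at its highest mean at 4 h with the inhibitor. Its level was 147, 122 and 149 CPM in cycling and 84.1, 72 and 84.5 CPM in arrested cells. In DMSO it measured 236, 148 and 154 CPM at 4 h and 388, 337 and 257 CPM at 6 h. Under AZ20 it measured 434, 423 and 303 CPM at 4 h and 385 and 306 CPM at 6 h. All 4 h DMSO libraries lie below all libraries of the 3 conditions 4 h inhibitor, 6 h DMSO and 6 h inhibitor, which overlap one another.

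**Figure D2:**
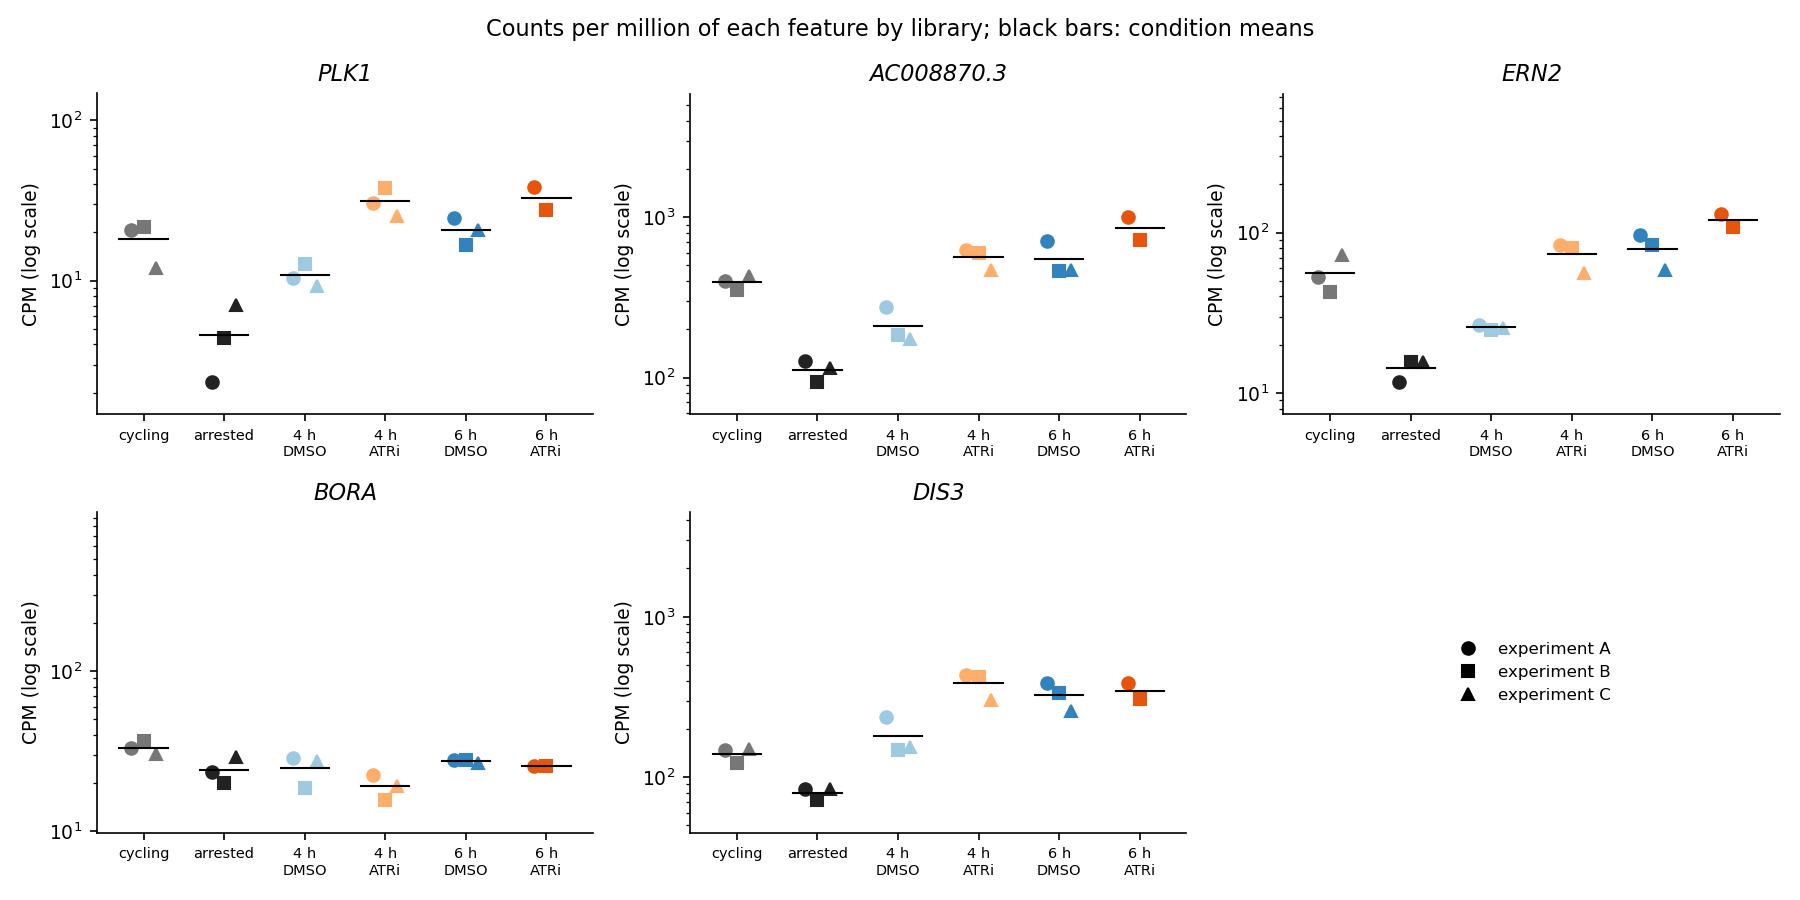
CPM (log axis, 100-fold in each panel) of each feature in the 17 libraries by condition, with the symbol showing the experiment and a bar at the condition mean. PLK1, AC008870.3 and ERN2 have their lowest mean in arrested cells and their highest at 6 h with the inhibitor, whereas BORA stays between 15.7 and 36.4 CPM.

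Thymidine arrest against cycling cells is the comparison that shares no library with those that chose the features. PLK1, AC008870.3, ERN2 and DIS3 were lower in arrested cells, 4 of the 5 features, where 1.03% of all tested IDs were called in either direction (edgeR's quasi-likelihood test, Benjamini-Hochberg adjusted p under 0.05). PLK1 fell by 1.94 ± 0.35 on the log2 scale (SE, adjusted p = 0.00279), from a mean of 18.1 to 4.6 CPM. AC008870.3 fell by 1.82 ± 0.21 (adjusted p = 5.85e-06) and ERN2 by 1.96 ± 0.24 (adjusted p = 2.71e-05). The fall of DIS3 was smaller, 0.80 ± 0.20 (adjusted p = 0.0444). It ran to 0.573, 0.59 and 0.566 of the cycling level in experiments A, B and C. Its call was lost on leaving out any of the 6 libraries in turn (adjusted p = 0.0718 to 0.223) and with another scaling of the libraries (adjusted p = 0.0532). With the experiment as a replicate block DIS3 fell by 0.79 ± 0.13 (adjusted p = 1.18e-06), where 5.64% of all IDs passed. DESeq2 also called DIS3 (adjusted p = 0.0161), where it called 2.28% of the IDs with an adjusted p. BORA had a log2 difference of -0.46 ± 0.22 and did not pass (adjusted p = 0.509). The authors' deposited table lists log2 differences of -1.3 for PLK1, -1.62 for AC008870.3, -1.6 for ERN2, -0.38 for BORA and -0.69 for DIS3 here.

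Release for 4 h in DMSO asks what changes by late S phase. AC008870.3 and DIS3 were higher than in arrested cells, 2 of the 5 features, against 0.74% of all IDs. AC008870.3 rose by 0.92 ± 0.21 (adjusted p = 0.0262) and DIS3 by 1.16 ± 0.20 (adjusted p = 0.00315). Without arrested library A, B or C, or without 4 h DMSO library A, the AC008870.3 call was lost (adjusted p = 0.0621 to 0.15), leaving DIS3 as the feature called. PLK1 had a log2 difference of 1.19 ± 0.37 (adjusted p = 0.159) and ERN2 of 0.83 ± 0.26 (adjusted p = 0.163). With the experiment as a replicate block, a fit in which 4.77% of all IDs passed, both were called as well (adjusted p = 0.0361 and 0.02), making 4 of 5. AC008870.3 rose by 0.90 ± 0.12 in that fit (adjusted p = 5.41e-09). DESeq2 also called AC008870.3 (adjusted p = 0.00194), where it called 3.2% of the IDs with an adjusted p. BORA's difference was 0.03 ± 0.23. The 4 h DMSO libraries also served in the comparisons that chose the features.

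By 6 h, in G2, PLK1, AC008870.3, ERN2 and DIS3 were all higher than in arrested cells, 4 of the 5 features against 2.32% of all IDs, while BORA did not pass. ERN2 rose most, by 2.46 ± 0.24 on the log2 scale (adjusted p = 2.96e-07), from 14.3 to 79.6 CPM. AC008870.3 rose by 2.30 ± 0.21 (adjusted p = 1.13e-07), PLK1 by 2.13 ± 0.35 (adjusted p = 0.000536) and DIS3 by 2.03 ± 0.20 (adjusted p = 2.96e-07). In every experiment these 4 features rose: the PLK1 fold was 10.4, 3.82 and 2.93, and the DIS3 fold 4.61, 4.69 and 3.04 in A, B and C. BORA changed by 0.17 ± 0.23 (adjusted p = 0.857). The 6 h DMSO libraries took part in choosing the features, as a comparison with 4 h DMSO.

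Against cycling cells, the 6 h DMSO libraries were higher in DIS3, 1 of the 5 features where 1.04% of all IDs were called. DIS3 rose by 1.23 ± 0.19 (adjusted p = 0.00111), from 139 to 327 CPM, and the folds were 2.64, 2.77 and 1.72. PLK1 differed by 0.19 ± 0.29 (adjusted p = 0.908), ERN2 by 0.51 ± 0.21 (adjusted p = 0.361) and BORA by -0.28 ± 0.22 (adjusted p = 0.75). AC008870.3 differed by 0.48 ± 0.20 (adjusted p = 0.339) and passed with the replicate block (adjusted p = 0.00137), where 6.29% of all IDs passed. This made 2 of 5. As said, the 6 h DMSO libraries took part in choosing the features.

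The inhibitor at 4 h is the comparison the group was drawn from, and its values are a description. The folds over DMSO in experiments A, B and C were 2.91, 2.97 and 2.74 for PLK1, 2.28, 3.29 and 2.69 for AC008870.3, and 3.14, 3.23 and 2.21 for ERN2. DIS3 stood at 1.84, 2.86 and 1.97 times its DMSO level, and BORA at 0.787, 0.848 and 0.706 times. Every experiment thus had more counts of 4 features and fewer of BORA. On the log2 scale the fitted differences were 1.53 ± 0.30 for PLK1, 1.43 ± 0.20 for AC008870.3, 1.52 ± 0.22 for ERN2, -0.37 ± 0.23 for BORA and 1.11 ± 0.19 for DIS3. From 4 h to 6 h in DMSO, also a description, they were 0.94 ± 0.30, 1.39 ± 0.20, 1.63 ± 0.23, 0.14 ± 0.22 and 0.87 ± 0.19 in the same order. These 2 comparisons share the 4 h DMSO libraries. The mean PLK1 level at 4 h with the inhibitor, 31.1 CPM, lay above that at 6 h in DMSO, 20.7 CPM. The nearest libraries of the 2 conditions stood close, at 25.4 CPM with the inhibitor and 24.5 CPM in DMSO. For AC008870.3 the same means were 565 and 549 CPM, with overlapping libraries.

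At 6 h none of the 4 features tested passed for the inhibitor against DMSO (edgeR), where 1 of 13510 IDs (0.0074%) was called. Of the 4, 3 had an unadjusted p under 0.05. DESeq2 gave an adjusted p to AC008870.3 and ERN2 (0.389 and 0.721) but none to PLK1 and BORA. It called neither of the former, where it called 0.53% of the IDs it gave an adjusted p. PLK1 had 1.56 and 1.64 times its DMSO level in experiments A and B, AC008870.3 1.41 and 1.56 times, ERN2 1.34 and 1.3 times and BORA 0.921 and 0.919 times. The fitted log2 differences were 0.67 ± 0.31 for PLK1 (adjusted p = 1) and 0.65 ± 0.21 for AC008870.3 (adjusted p = 0.743). With the replicate block AC008870.3 rose by 0.60 ± 0.11 (adjusted p = 0.000601), 1 of the 4, where 0.533% of all IDs passed. The 6 h DMSO libraries used here also took part in choosing the features. DIS3, described only, stood at 0.993 and 0.906 times its DMSO level. The fitted response at 6 h minus that at 4 h was -0.86 ± 0.43 for PLK1, -0.77 ± 0.29 for AC008870.3, -0.94 ± 0.32 for ERN2, 0.27 ± 0.34 for BORA and -1.03 ± 0.28 for DIS3, given as a description because such values were known when DIS3 was included.

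Between 4 h and 6 h under the inhibitor, none of the 4 features tested passed (edgeR), with 0.0296% of all IDs called. Of the 4, 2 had an unadjusted p under 0.05. DESeq2 gave PLK1 no adjusted p and called none of the others, where it called 0.698% of the IDs with an adjusted p. AC008870.3 was 1.6 and 1.2 times and ERN2 1.55 and 1.35 times as high at 6 h in experiments A and B. With the replicate block both passed, 2 of the 4 (adjusted p = 0.00192 and 0.0315), where 1.24% of all IDs did. The 4 h inhibitor libraries also served in a comparison that chose the features. PLK1 moved to 1.27 and 0.732 times its 4 h level, in opposite directions. BORA moved to 1.13 and 1.62 times (log2 difference 0.41 ± 0.26, adjusted p = 0.94), and DIS3, described only, to 0.887 and 0.723 times.

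**Figure D3:**
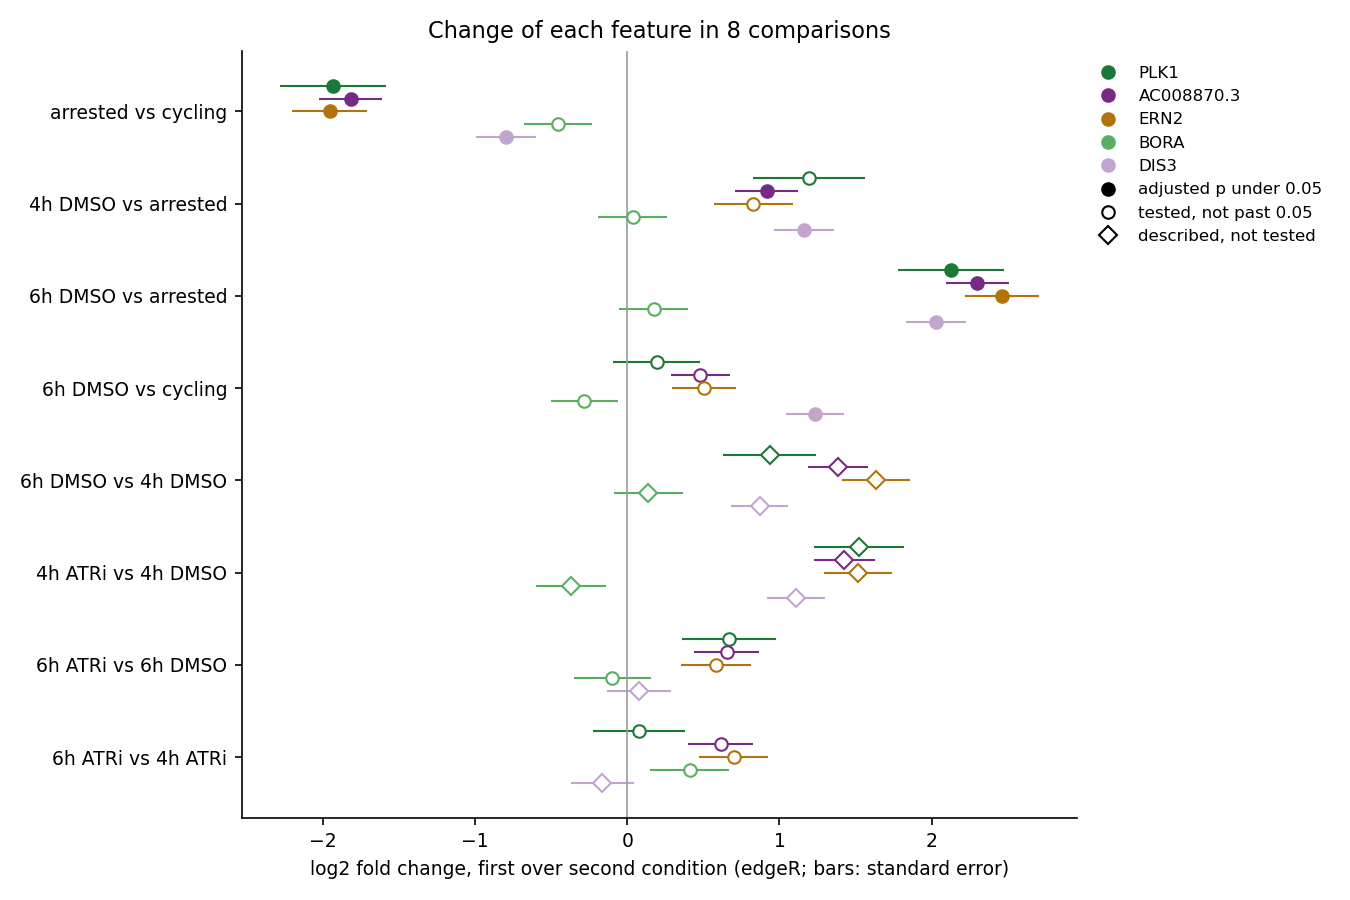
Log2 fold change (x axis, edgeR, bars are standard errors) of each feature in 8 comparisons; filled circles passed an adjusted p of 0.05, open circles did not, and open diamonds are descriptions with no test. PLK1, AC008870.3 and ERN2 lie close together in each comparison with arrested cells, and BORA lies between -0.46 and 0.41 throughout.

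The 3 features of the PLK1 locus were picked knowing that they rose together in the 2 comparisons given as descriptions, so the ratios over all libraries are a description. AC008870.3 had 14.1 to 47.7 counts for each PLK1 count over the 17 libraries (geometric mean 22.2). The condition means ran from 18.1 at 4 h with the inhibitor to 26 at 6 h with or without it. ERN2 had 0.0956 to 0.181 counts for each count on AC008870.3 (geometric mean 0.135), with condition means of 0.126 to 0.145. Between arrested and cycling cells, whose libraries took no part in the choice, the log2 ratios differed (arrested minus cycling) by 0.16 for AC008870.3 to PLK1 and by -0.11 for ERN2 to AC008870.3 (two-sided exact permutation tests, p = 0.7 and 0.8, both 0.8 when adjusted over 3 ratios; the smallest unadjusted p for 3 against 3 libraries is 0.1). Of all counts on these 3 features, AC008870.3 took 84.6% ± 1.97 (SD, n = 17), ERN2 11.5% ± 1.71 and PLK1 3.9% ± 1.12. A missed threshold does not show that the split was equal: the log2 ratio of AC008870.3 to PLK1 had an SD of 0.84 among the 3 arrested libraries, where PLK1 had as few as 4 counts.

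DIS3 and BORA split unevenly. DIS3 had 3.34 to 4.84 counts for each BORA count in cycling cells and 2.88 to 3.55 in arrested cells. The ratio was 5.6 to 8.16 at 4 h in DMSO and 15.6 to 26.5 at 4 h with the inhibitor, and these 2 ranges do not overlap with each other or with those of cycling and arrested cells. At 6 h it was 9.57 to 13.9 in DMSO and 11.9 to 14.9 with the inhibitor. BORA's share of the counts of this pair was 23.1% ± 2.21 in arrested cells and 4.84% ± 1.2 at 4 h with the inhibitor (SD, n = 3 each). The ratio over all conditions includes the libraries that chose DIS3 and is given as a description. Between arrested and cycling cells alone the log2 ratio differed in the same sense by -0.33 (exact permutation test, p = 0.3, adjusted 0.8).

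**Figure D4:**
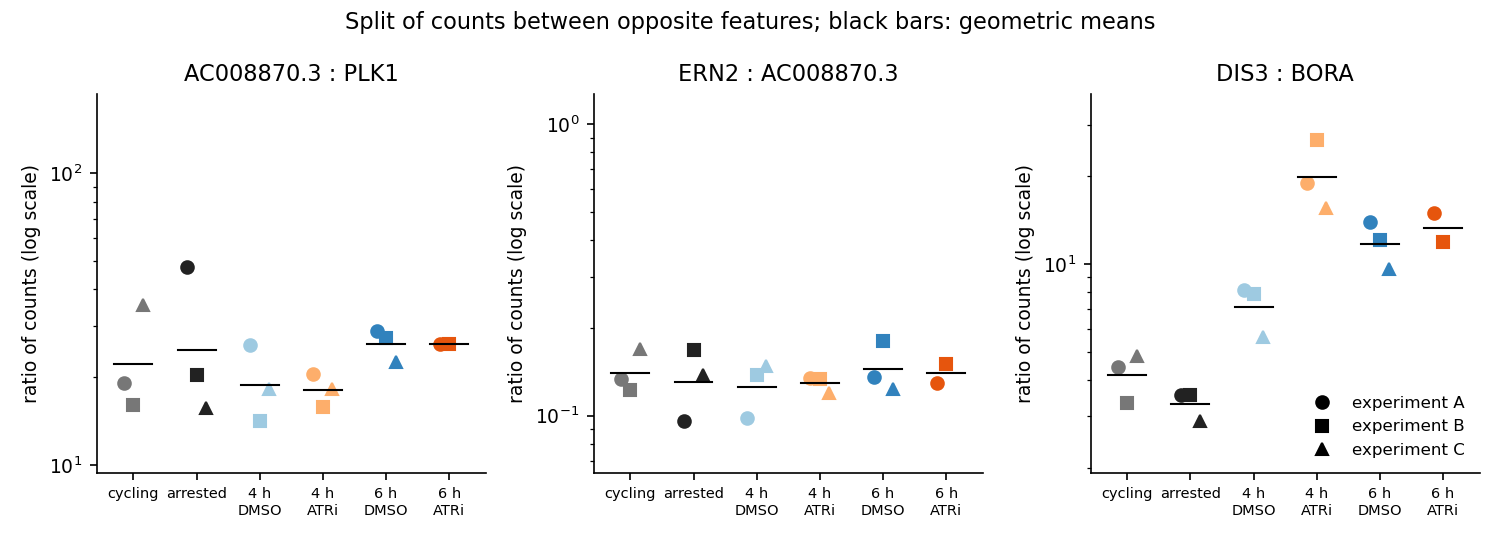
Ratio of counts (log axis, 20-fold in each panel) between opposite features in each library by condition, with bars at geometric means and symbols for experiments. The left and middle ratios scatter around 22.2 and 0.135 in all conditions, while DIS3 to BORA runs from 2.88 in an arrested library to 26.5 in a 4 h inhibitor library.

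The features most like AC008870.3 were sought among 10285 IDs with a mean of at least 5 CPM, by Pearson r of log2 CPM centred within each experiment over the 17 libraries. This is a description of libraries that all IDs share. The 5 highest were AC005339.1 (r = 0.983), ERN2 (0.982), CLCC1 (0.981), AC125611.3 (0.969) and FAM166A (0.961). Apart from ERN2, they lie opposite TNFAIP8L1, GPSM2 (a spindle orientation protein), TUBA1C (an alpha-tubulin) and TUBB4B (a beta-tubulin) in that order. Their r with these partners, also centred within each experiment, was 0.413, -0.739, 0.923 and 0.881 in the same order. PLK1 itself ranked 25 with r = 0.925, DIS3 ranked 62 with 0.879, and BORA had an r of 0.03. For DIS3 the 5 highest were AC106820.5 (r = 0.99), KIF7 (0.97), CCNF (0.969), AC027237.3 (0.961) and EXOSC9 (0.96). AC106820.5 lies opposite CCNF (cyclin F), KIF7 opposite TICRR (a replication initiation factor), AC027237.3 opposite KIF23 (a cytokinesis kinesin) and PAQR5, and EXOSC9 opposite CCNA2 (cyclin A2). The r of these features with CCNF, TICRR, KIF23, PAQR5 and CCNA2 was 0.967, -0.0418, 0.837, 0.686 and -0.738 in that order. How many of the 10285 IDs lie opposite another feature was not counted. BORA had an r of -0.262 with DIS3. Without centring, the same 5 features led for AC008870.3, while for DIS3 CCNF, AC027237.3 and EXOSC9 gave way to CBR3-AS1, GNB3 and KPNA2.

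**Figure D5:**
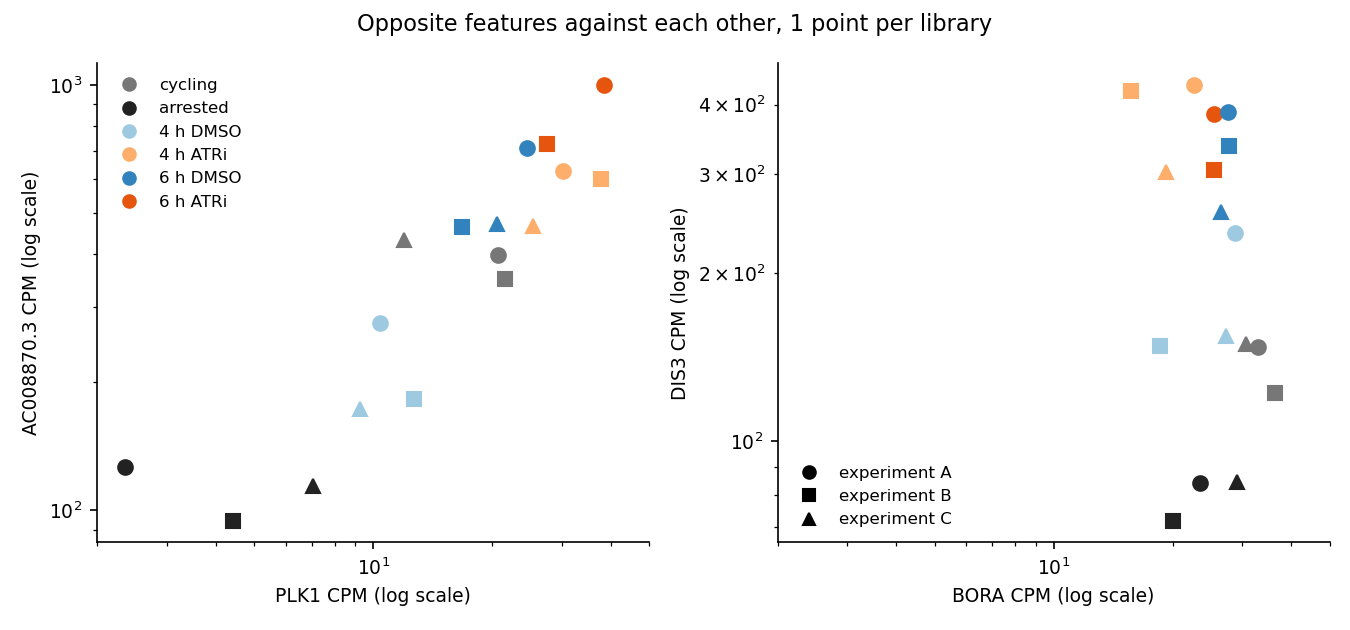
CPM of AC008870.3 against PLK1 (left) and of DIS3 against BORA (right), both axes logarithmic, 1 point per library with colour for condition and symbol for experiment. The left points run along a diagonal (r = 0.925), and the right points spread mostly along the DIS3 axis, with BORA from 15.7 to 36.4 CPM (r = -0.262). Both r are after centring within experiments, whereas the plotted points are not centred.

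Of 40 genes known to act with PLK1 and BORA in G2 and mitosis (activators, cyclins, substrates and promoter-binding factors), 39 had enough counts to test. In 6 h DMSO against arrested cells 9 of 39 were higher and none lower, where 2.32% of all IDs were called, with a median log2 difference of 0.51 against -0.01 for all IDs. With the replicate block 12 were higher and 2 lower, where 7.71% of all IDs passed. The list was drawn up with earlier results of these data known, and the 6 h DMSO libraries took part in choosing the features. These counts and medians are therefore a description and not independent support. CDC20, which activates the anaphase-promoting complex, rose by 1.97 ± 0.30, CCNF by 1.75 ± 0.29, TPX2, an activator of Aurora A, by 1.16 ± 0.20, INCENP, of the chromosomal passenger complex, by 1.00 ± 0.18 and KIF23 by 1.40 ± 0.27 (adjusted p = 0.000249 to 0.00289, edgeR). Arrest against cycling cells lowered 1 of 39, CDC20, by 1.72 ± 0.30 (adjusted p = 0.00214), where 1.03% of all IDs were called, or 5 with the replicate block, where 5.64% of all IDs passed. At 4 h in DMSO KIF23 was the 1 of 39 that rose over arrested cells, by 1.22 ± 0.27 (adjusted p = 0.0246), where 0.74% of all IDs were called, against 3 with the block, where 4.77% were. CCNF and KIF23 share bases with the opposite features named above, so their values are uncertain as to the gene.

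The 2 comparisons that chose the features are a description for these 39 genes too. The list was drawn up with earlier results of these data known, so counts past the threshold are no test of it there. Nothing is read from those counts, or from their distance to the share of all IDs. With the inhibitor at 4 h the fit placed 3 of 39 above the threshold, against 0.311% of all IDs, and with the block 7, against 1.75%. These 3, named as a description only, were WEE1, TPX2 and INCENP. WEE1, the kinase that holds CDK1 inactive, had a log2 difference of 1.47 ± 0.27. Its means were 8.67 CPM in DMSO and 24.1 CPM with the inhibitor. The log2 differences of TPX2 and INCENP were 0.96 ± 0.19 and 0.83 ± 0.18. From 4 h to 6 h in DMSO the same counts were none in edgeR (10 at an unadjusted p under 0.05, 0.0814% of all IDs past the threshold), 2 in DESeq2 (0.355% of the IDs with an adjusted p) and 5 with the block (1.04%). At 6 h the inhibitor moved none of the 39 in edgeR (10 at an unadjusted p under 0.05), where 0.0074% of all IDs passed. DESeq2 called none of the 39 there, but gave an adjusted p to 3584 IDs only, of which it called 0.53%. With the block 1 of the 39 was up and 1 down, CEP55 and PLK2, where 0.533% of all IDs passed. Under the inhibitor from 4 h to 6 h none of the 39 passed in edgeR (5 at an unadjusted p under 0.05), where 0.0296% of all IDs did. DESeq2 called none of them, but gave an adjusted p to 4155 IDs only, of which it called 0.698%. The block had PKMYT1 higher and NEDD1 lower, where 1.24% of all IDs passed. NEDD1 had a mean of 0.555 CPM over the 2 libraries at 6 h, near the floor, against 7.81 CPM at 4 h. Against cycling cells, 6 h DMSO had INCENP higher by 0.87 ± 0.18 and KIF23 by 1.07 ± 0.26, and MYBL2, a MuvB partner, lower by a log2 difference of -1.20 ± 0.27 and PKMYT1, a kinase that inhibits CDK1, by -1.23 ± 0.27 (adjusted p = 0.0133 to 0.0373), where 1.04% of all IDs were called. The block gave 6 higher and 3 lower there, where 6.29% of all IDs passed. PKMYT1 lies opposite PAQR4 and KREMEN2, which makes its value uncertain as to the gene. AURKA, which encodes Aurora A, had a mean of 7.39 CPM and passed in none of the 6 tested comparisons with or without the block.

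Of the families that DIS3 and ERN2 belong to, 1 gene passed in the 6 tested comparisons without the replicate block, and more with it. Of 17 other RNA exosome and decay genes 15 were tested, with medians of -0.21 to 0.07 on the log2 scale over the 8 comparisons, where the medians of all IDs ran from -0.02 to 0.01. That 1 gene was DIS3L, a cytoplasmic relative of DIS3, with a log2 difference of -1.24 ± 0.22 in 6 h DMSO against cycling cells (adjusted p = 0.00484), 1 of 15 where 1.04% of all IDs were called and DIS3 rose. DIS3L lies opposite AC055855.1 and AC055855.2 and is uncertain as to the gene. DESeq2 called 1 gene also in 6 h DMSO against arrested cells, where it called 4.7% of the IDs with an adjusted p, and at most 2 of the 15 had an unadjusted p under 0.05 in any tested comparison. With the replicate block EXOSC9, opposite CCNA2 as said, passed in 4 of the 6 tested comparisons (adjusted p = 8.58e-13 to 0.00093). It was higher in 4 h DMSO and in 6 h DMSO than in arrested cells (log2 differences of 0.57 and 1.08 without the block), higher in 6 h DMSO than in cycling cells (0.56) and lower in arrested than in cycling cells (-0.51). DIS3L, with the block, was lower in 6 h DMSO than in arrested cells (log2 difference -0.69 without the block, adjusted p = 0.0317 with it) and than in cycling cells. These made 1, 2, 2 and 1 of the 15 in those 4 comparisons, in the order given for EXOSC9, where 4.77%, 7.71%, 6.29% and 5.64% of all IDs passed with the block.

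Of 16 unfolded protein response genes, the pathway of IRE1 proteins, 15 were tested, with medians of -0.23 to 0.13 over the 8 comparisons. None passed in edgeR in the 6 tested comparisons, with at most 4 of 15 at an unadjusted p under 0.05. In arrested against cycling cells DESeq2 called 1, where it called 2.28% of the IDs with an adjusted p, and the replicate block called DDIT3 higher and HSP90B1 and CANX lower, 3 of 15 where 5.64% of all IDs passed. The block also called HSP90B1 lower in 6 h DMSO against cycling cells, 1 of 15 where 6.29% passed. DDIT3 lies opposite MARS and MBD6, HSP90B1 opposite C12orf73 and TTC41P, and CANX opposite CBY3, so their values are uncertain as to the gene.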

How the data were processed

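The authors deposited 1 table of read counts per gene for 17 libraries, made per the labels from Trizol-extracted RNA by a stranded KAPA mRNA kit. TopHat, HTSeq, DESeq2 and the build GRCh37 are named in the submitters' processing notes; no version is named there, and the strand setting is not given in the sources used here. The authors also deposited log2 fold changes and adjusted p-values for 8 comparisons, whose direction was taken from the sign of their correlation with the fit. The features and gene lists were chosen with earlier results of these data known.

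Counts were analysed in R 4.3.3 with edgeR 4.0.16 (filterByExpr at its minimum of 10 counts per library and 15 in total, TMM factors, robust glmQLFit, glmQLFTest) over all 17 libraries with a mean per condition. Calls are at a Benjamini-Hochberg adjusted p under 0.05 over 13510 IDs. CPM use library totals of 1758747 to 2357561 counts, each scaled by its TMM factor (0.923 to 1.08). The fit was tested on simulated counts. Names matched for 55910 of 60252 IDs. Overlaps and exon lengths come from GENCODE 29 on GRCh38, not the build of the counts, and no coordinates were converted. Ratios of raw counts used a pseudocount of 0.5. The permutation test planned for them over all conditions used libraries that chose the features and is not reported; an exact test of arrested against cycling libraries, added after seeing the data, replaces it. Named genes are the 5 features, the 5 IDs most like AC008870.3 and DIS3, and up to 5 called genes per list and comparison, smallest p first.

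The experiment letter was taken as a replicate block from the design text, which speaks of 3 independent experiments. Deviations from the condition means of same-letter libraries correlated at 0.081 to 0.534 over 22 pairs, with 18 of 22 highest for their own letter. The pair under 0.1 is 6 h DMSO against cycling in experiment C. Alternatives were RLE factors, DESeq2 1.42.0, no filter, the replicate block, and leaving out libraries or experiment B.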

Additional observations from a re-analysis of the deposited data

Results flagged for a closer look

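DIS3 differed in its response to the inhibitor between the times. The mean log2 difference from DMSO was 1.12 at 4 h, higher in 3 of 3 experiments, and -0.08 at 6 h, lower in 2 of 2. At 6 h experiment A stood at 0.993 times its DMSO level, almost no change, and B at 0.906 times. The difference between the times was not tested, because DIS3 was included with it known. The fit over all libraries, which also uses experiment C of 6 h DMSO, gave 0.08 ± 0.21 at 6 h. A smaller response at 6 h was not particular to DIS3. The fitted response at 6 h minus that at 4 h was -1.03 ± 0.28 for DIS3. It was -0.86 ± 0.43 for PLK1, -0.77 ± 0.29 for AC008870.3, -0.94 ± 0.32 for ERN2 and 0.27 ± 0.34 for BORA.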

How the results depend on the processing

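The count of features called moved in 4 of the 6 tested comparisons. With the replicate block it was 1 for the inhibitor against DMSO at 6 h, 4 for 4 h DMSO against arrested, 2 for 6 h DMSO against cycling and 2 for the inhibitor from 4 h to 6 h; it changed no other call of a feature. Without experiment B, which leaves 1 library of the inhibitor at 6 h that is assumed to vary like the others, the counts were 1, 3, 2 and 2. Leaving out single libraries gave 1 to 2 for 4 h DMSO against arrested. The count stayed within 1.5 times in 6 h DMSO against arrested and in arrested against cycling under every alternative run, though the latter lost DIS3 without any 1 library. The cause was not tested. For the ratio of DIS3 to BORA an exact permutation test of arrested against cycling cells, added after seeing the data, gave a p of 0.3, or 0.8 adjusted over 3 ratios, where the smallest unadjusted p for 3 against 3 libraries is 0.1. A test of the ratios over all 6 conditions would rest on libraries that chose the features, so its p is not given. Depth limits PLK1, at 4 to 84 counts.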
